A study of Rattus norvegicus with 8 samples.

Results

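Rat kidney grafts from recipients given an antibody against the interleukin-6 (IL-6) receptor were set against untreated grafts from donors close in weight to their recipients, to see which transcripts still differed after treatment. The 4 arrays of these groups, 2 per group, were chosen by their titles from the 8 arrays of the series. All 8 arrays measured total RNA of Dark Agouti (DA) kidneys taken 24 h after orthotopic transplantation into male, bilaterally nephrectomized Lewis rats, an MHC-incompatible strain. All animals were inbred males of 120 to 250 g, and every graft was cooled with University of Wisconsin (UW) solution and held at 4 °C for 25 min. In the anti-IL6R group the donor was 20 to 50% lighter than the recipient, and the recipient received a single intravenous injection of 500 µg neutralizing antibody directly after surgery. In the low group the donor was 0 to 20% lighter and no drug was given. The 2 groups therefore differed in treatment and in donor weight at the same time, and no anti-IL6R graft came from a weight-matched donor. The remaining 4 arrays held grafts with the same 20 to 50% weight gap as the anti-IL6R group, either untreated (high) or given prednisolone at 15 mg/kg. Per the series' design text, the 2 arrays of a group are biological replicates. Both low arrays lay on slide 1 with the high arrays, and both anti-IL6R arrays on slide 2 with the prednisolone arrays, so slide and group cannot be told apart in any value given here.

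IL-6 is a cytokine that binds its receptor, encoded by Il6r, in membrane or soluble form, and signals through the shared subunit gp130, encoded by Il6st. The kinases attached to gp130 activate the transcription factor STAT3, which induces acute-phase proteins and its own inhibitor Socs3. In transplanted kidney, IL-6 signalling is known for its part in the inflammation that follows cold storage and reperfusion and in the recruitment of recipient leukocytes.

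Between 71.5% and 74.0% of the 43379 gene spots were well above background on each of the 4 arrays. Levels are given as log2 signal minus the 75th percentile of the array, so a level of 0 is that of the spot at this percentile, and a difference is always anti-IL6R minus low. Over the genes tested, the anti-IL6R arrays correlated with r = 0.992 and the low arrays with r = 0.988. Across the groups r was 0.992 between anti-IL6R array 2 and low array 2, 0.991 between anti-IL6R array 1 and low array 2, 0.985 between anti-IL6R array 1 and low array 1, and 0.979 between anti-IL6R array 2 and low array 1. Low array 1 thus stood further from the anti-IL6R arrays than low array 2 did, and many of the values below rest on it. Before scaling, the 75th percentile of the signal was 1327 and 1681 on the anti-IL6R arrays against 1064 and 1286 on the low arrays, while 7 spike-in control probes differed by -0.09 to 0.02. Scaling on these controls in place of the percentile, an alternative chosen after seeing the data, moved every difference up by 0.33, and directions that turn under it are named where they occur.

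The samples carried the transcripts of kidney. All 10 tubule markers, 4 of 4 podocyte markers and 4 of 4 endothelial markers were well above background on the 4 arrays. So were 7 of 7 monocyte and macrophage markers and 6 of 7 T and NK cell markers, against 2 of 4 neutrophil markers. None of the 4 B and plasma cell markers with a probe was above background on any of the 4 arrays. In these bulk samples, fewer cells of a type and less RNA per cell cannot be told apart.

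Few transcripts separated the groups beyond the spread between replicates. Of 24447 genes tested with limma, 1 was called higher in the anti-IL6R grafts (0.00409%) and 0 were called lower (0%) at a Benjamini-Hochberg adjusted p under 0.05. At an unadjusted p under 0.05, 412 genes were higher (1.69%) and 348 lower (1.42%), 3.11% together. The 2 groups of arrays did not overlap for 39.2% of genes, 15.2% with the anti-IL6R arrays higher and 24% with them lower. The median difference over all genes was -0.04, or 0.29 with spike-in scaling, with 44.8% of genes above 0 and 55.2% below 0. The smallest p that an exact permutation test of 2 arrays against 2 can give is 0.33, so no single value could pass such a test.

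**Figure D1:**
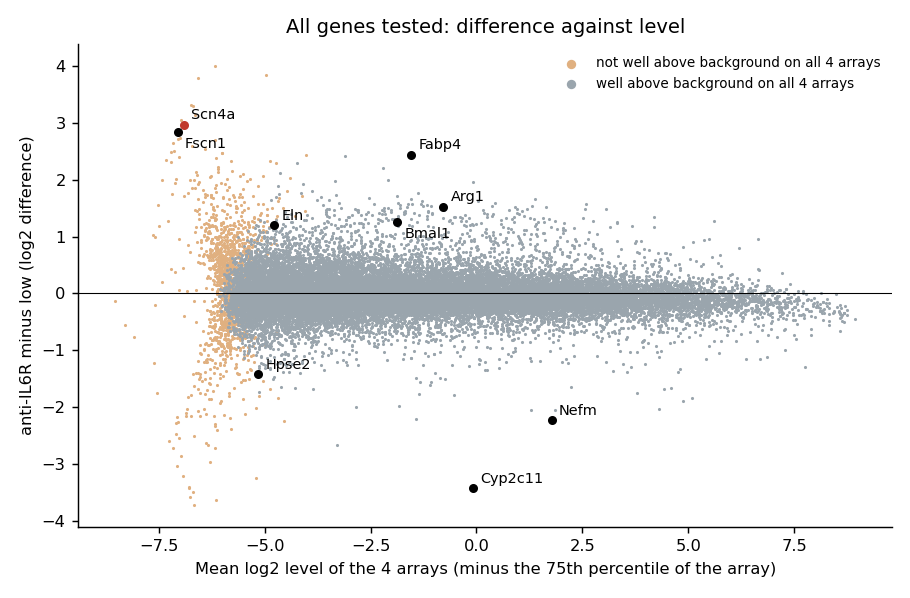
Each point is 1 of the 24447 genes tested; the horizontal axis is the mean log2 level of the 4 arrays (minus the 75th percentile of the array) and the vertical axis the log2 difference, anti-IL6R minus low. Grey points were well above background on all 4 arrays and tan points were not; Scn4a (red) was the only gene called, and it lies with Fscn1 among the dim probes at the left.

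The called gene was Scn4a, which encodes the pore-forming subunit of the skeletal muscle sodium channel. Its levels were -5.32 and -5.54 on the anti-IL6R arrays and -8.30 and -8.50 on the low arrays, a difference of 2.97 ± 0.18 (SE, n = 2 and 2, limma adjusted p = 0.045). The probe was not well above background on either low array, so the measured contrast is at least 1.68-fold. On the prednisolone arrays, which share the slide, Scn4a lay at -5.97 and -6.06, and on the high arrays at -7.72 and -7.71. All 4 arrays of slide 2 were thus above all 4 of slide 1. The call was lost on leaving out any 1 of the 6 low, anti-IL6R and high arrays, and under 9 of 13 other settings that tested the gene, among them normexp background correction, where the difference was 0.47. Without the prednisolone group 7 genes were called higher and 1 lower.

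Genes next in order of p were also dim on 1 side. Fscn1, whose product fascin bundles actin filaments, lay at -5.49 and -5.77 against -8.40 and -8.54 on the low arrays, at least 1.46-fold (adjusted p = 0.057). Its levels on the prednisolone arrays were -5.39 and -5.67 and on the high arrays -7.75 and -7.61, which again put all arrays of slide 2 above all of slide 1. Hes2, a transcriptional repressor of the hairy and enhancer of split family, lay at -5.55 and -5.58 against -6.68 and -6.79, at least 1.53-fold (adjusted p = 0.389). Its levels on the other arrays were -5.95 and -6.02 with prednisolone and -7.00 and -6.89 in the high group, the same order by slide.

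In the other direction the smallest p-values belonged to Or5k8, an olfactory receptor gene, at -8.40 and -8.69 against -4.68 and -5.26, at least 2.47-fold lower (adjusted p = 0.131). Ccdc33 was at least 2.29-fold lower (adjusted p = 0.143), although a second probe for it, above background on none of the 4 arrays, differed by only -0.12. Vipr1, a receptor for vasoactive intestinal peptide, was at least 1.28-fold lower (adjusted p = 0.143). These 3 genes were above background on both low arrays and on neither anti-IL6R array. Among the 50 genes with the smallest p, 4 were well above background on all 4 arrays.

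**Figure D2:**
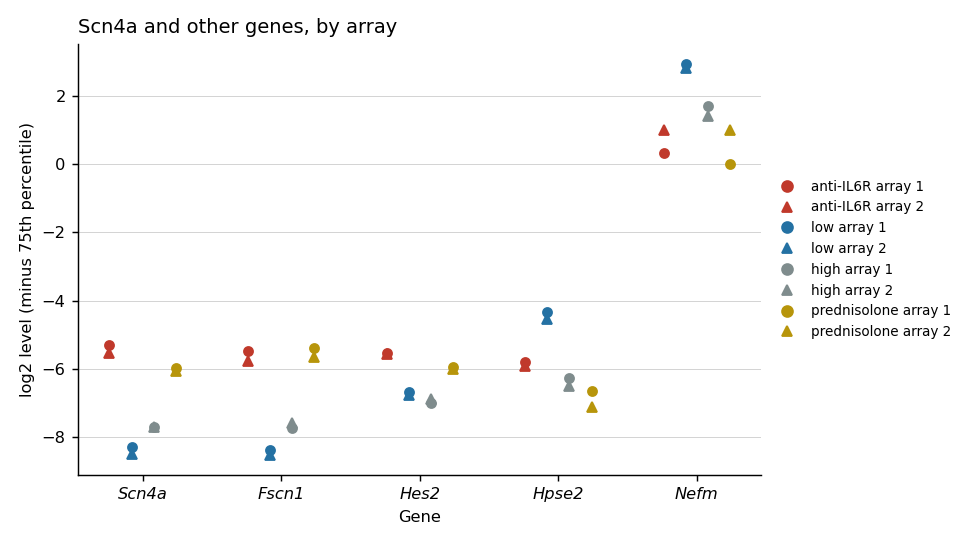
Log2 levels (minus the 75th percentile of the array) of 5 genes on each of the 8 arrays, coloured by group, with circles for array 1 and triangles for array 2. Scn4a, Fscn1 and Hes2 are higher on the anti-IL6R and prednisolone arrays than on the low and high arrays, while Hpse2 and Nefm are highest on the low arrays.

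Among genes measured well above background on all 4 arrays, 476 of 23066 differed by more than 2-fold. For 306 of these the groups did not overlap, with 178 higher and 128 lower in the anti-IL6R grafts, beside 39.2% of all genes. Genes picked for a large difference between these same arrays overlap less often by that choice alone, so the count shows no further separation. Hpse2, a heparan sulfate-binding relative of heparanase, lay at -5.81 and -5.91 against -4.34 and -4.54 on the low arrays, a difference of -1.42 ± 0.22 (adjusted p = 0.547). A second Hpse2 probe, above background on 2 of the 4 arrays, gave -1.43. Nefm, a neurofilament subunit picked after its values were seen, lay at 0.32 and 1.01 against 2.96 and 2.82, a difference of -2.23 ± 0.38 (adjusted p = 0.67). It lay at 1.72 and 1.42 on the high arrays and at 0.01 and 0.99 on the prednisolone arrays, so the low arrays were the highest of the 8.

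Genes of the IL-6 pathway lay on both sides of 0. Of 26 tested genes of the IL-6 family and its STAT3 feedback, 13 lay higher and 13 lower in the anti-IL6R grafts, 0 had an unadjusted p under 0.05, and the median difference was -0.01 (with spike-in scaling 24 lay higher and the median was 0.32). The receptor gene Il6r lay at -0.95 and -1.66 against -1.28 and -1.34, and the shared subunit Il6st at 0.19 and 0.53 against 0.35 and 0.46, so the groups overlapped for both. Stat3 lay at 3.75 and 3.38 against 3.39 and 3.48, again overlapping, and a second probe differed by -0.08. The signs of these 3 small differences turned under other settings. The inhibitor Socs3 lay at -2.71 and -2.74 against -3.70 and -2.92, a difference of 0.58 ± 0.61. Lifr, the receptor of leukemia inhibitory factor, lay at -2.61 and -2.53 against -2.22 and -2.27, a difference of -0.32 ± 0.18 without overlap, which was 0.00 with spike-in scaling. The transcript of Il6 was well above background on 0 of the 4 arrays and on 1 of all 8, so its level was not measurable here.

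Acute-phase proteins, which IL-6 induces in liver and in part in kidney, lay mostly higher, with 20 of 24 tested genes above 0 and a median difference of 0.63. None was called, and 1 of the 24 had an unadjusted p under 0.05, beside 3.11% of all genes. That gene was Itih3, a hyaluronan-binding serum protein, which lay at -5.51 and -5.93 against -7.27 and -6.61. Both low arrays were below its background limit, so it was at least 1.38-fold higher in these values. Under other settings its difference fell as low as 0.06. A2m, a protease inhibitor and a classical IL-6 target in rat, lay at 0.93 and 1.17 against -1.37 and 0.74. The heme and copper carriers Hpx and Cp differed by 0.88 ± 0.56 and 0.74 ± 0.41. Lcn2, the siderophore-binding injury marker, lay at -2.37 and -2.82 against -4.04 and -2.94. For A2m, Lcn2 and the list alike, low array 1 was the lowest of the 4 and low array 2 lay close to the anti-IL6R arrays. Without low array 1 the list's median was 0.26 with 16 of 24 genes above 0, and without low array 2 it was 1.08. With normexp it was 0.28.

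The list with the greatest median difference was that of cell cycle genes. Of 57 tested, 55 lay higher in the anti-IL6R grafts, with a median of 1.21. However, 0 were called, 0 had an unadjusted p under 0.05, and 8 separated the groups without overlap, all higher, beside 15.2% of all genes. Relative to the mean of each gene over all 8 arrays, the list's median was 0.03 and 0.97 on the anti-IL6R arrays, -1.69 on low array 1 and 0.21 on low array 2. It was 0.33 and -1.02 on the high arrays and 0.16 and 0.78 on the prednisolone arrays. Low array 1 thus lay below the other 7 arrays, and low array 2 lay between the anti-IL6R arrays. Without low array 1 the median was 0.22, without low array 2 it was 2.16, and without anti-IL6R array 2 it was 0.70.

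Single genes of the list had the same pattern. Cks2, a small subunit of cyclin-dependent kinase complexes, lay at 0.65 and 1.61 against -1.38 and 0.56. Ndc80, part of the outer kinetochore, lay at 1.04 and 1.94 against -0.99 and 1.04. Cenpe, a kinetochore motor protein, lay at -4.18 and -3.25 against -7.61 and -4.46, with low array 1 not above background. In each case low array 2 was within 1 log2 unit of the nearer anti-IL6R array, and low array 1 was the lowest of the 8. Bub1, a kinase of the spindle checkpoint, lay at 1.46 and 2.16 against -0.64 and 1.34.

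The promoters of Cks2 and Cenpe are shown because genes of this list varied together over the arrays and share promoter motifs. The sequences are RefSeq's (GRCr8), the 250 bases before the start of each gene on its own strand, at chr17:13727520-13727769 (minus strand) for Cks2 and chr2:226310807-226311056 (plus strand) for Cenpe. Capitals mark CCAAT (or ATTGG, its reverse complement) and the cell cycle element TTTGAA (or TTCAAA), and marked matches do not overlap.
Cks2: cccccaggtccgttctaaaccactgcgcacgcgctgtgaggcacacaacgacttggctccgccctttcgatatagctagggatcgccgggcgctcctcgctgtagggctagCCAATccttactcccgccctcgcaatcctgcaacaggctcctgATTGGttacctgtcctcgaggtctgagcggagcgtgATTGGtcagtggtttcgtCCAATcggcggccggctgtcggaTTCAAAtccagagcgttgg
Cenpe: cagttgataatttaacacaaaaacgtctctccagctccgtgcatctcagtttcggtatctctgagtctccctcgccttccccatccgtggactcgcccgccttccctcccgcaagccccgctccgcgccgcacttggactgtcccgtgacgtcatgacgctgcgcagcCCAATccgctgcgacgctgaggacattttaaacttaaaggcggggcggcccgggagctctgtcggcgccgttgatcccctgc
Cks2 held 4 CCAAT matches, beginning 139, 96, 60 and 42 bases before the start, and 1 match of the cell cycle element beginning 19 bases before it. Cenpe held 1 CCAAT match beginning 82 bases before the start. Over the 41 genes of the list with a promoter in the table, 30 (73.2%) held CCAAT and 14 (34.1%) the cell cycle element, beside 34.0% and 16.2% of all 33469 promoters of this length.

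Genes of the extracellular matrix also lay higher in the anti-IL6R grafts, 43 of 48 tested, with a median of 0.59. None was called, and 27 separated the groups without overlap on the higher side, beside 15.2% of all genes. An unadjusted p under 0.05 was found for 4, all higher, beside 1.69% of all genes. Eln, the elastic fibre protein, lay at -4.29 and -4.07 against -5.57 and -5.19, a difference of 1.20 ± 0.32 (unadjusted p = 0.00908). Its levels were -6.65 and -6.13 on the high arrays and -4.94 and -4.20 on the prednisolone arrays, so every array of slide 2 was above every array of slide 1. Fbln2, a fibulin of basement membranes and elastic fibres, lay at -3.24 on both anti-IL6R arrays against -4.05 and -3.97, a difference of 0.77 ± 0.28, and it followed the slides in the same way, with -3.87 and -4.70 in the high group and -2.82 and -2.92 with prednisolone.

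The fibrillar and microfibrillar collagens Col5a3 and Col6a2 rested more on low array 1. Col5a3 lay at -2.98 and -2.64 against -6.25 and -4.22, where 1 of the 2 low arrays was above background, and Col6a2 at -2.52 and -2.51 against -4.19 and -3.03. Col6a2 was lower on the high arrays (-4.03 and -4.73) and the prednisolone arrays (-3.55 and -3.70), so the anti-IL6R arrays were the highest of the 8. Col3a1, the type III collagen, lay at 4.55 and 4.14 against 2.92 and 3.91. Among 22 fibroblast and smooth muscle genes 16 lay higher, with a median of 0.31. Without low array 1 the median was 0.17 for the matrix list, with 34 of 48 genes above 0, and 0.07 for the fibroblast list. Without low array 2 these medians were 1.05 and 0.60.

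**Figure D3:**
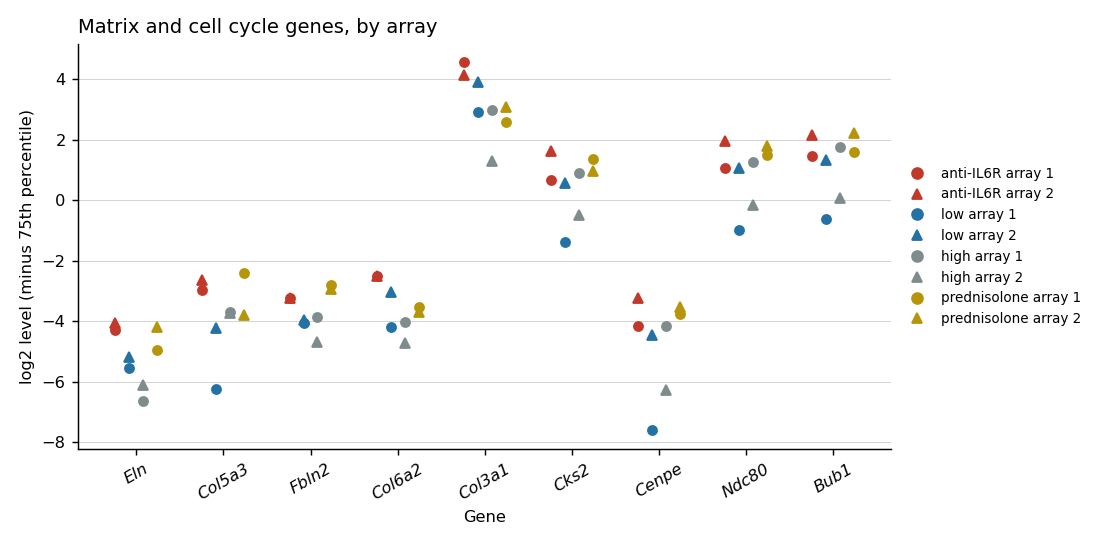
Log2 levels (minus the 75th percentile of the array) of 5 matrix genes and 4 cell cycle genes on each of the 8 arrays, coloured by group, with circles for array 1 and triangles for array 2. For the cell cycle genes low array 1 lies lowest of the 8 arrays and low array 2 lies near anti-IL6R array 1, whereas for Eln and Fbln2 the low arrays lie together below both anti-IL6R arrays.

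Leukocyte transcripts were on the higher side in the anti-IL6R grafts, none of them called. Of 12 neutrophil genes tested 12 lay higher (median 0.79), of 27 monocyte, macrophage and dendritic cell genes 23 (median 0.36), and of 27 T and NK cell genes 21 (median 0.42). Prtn3, the neutrophil granule protease 3, lay at -3.77 and -3.65 against -4.35 and -4.84, a difference of 0.88 ± 0.22 (unadjusted p = 0.00577). It lay at -4.27 and -4.25 on the high arrays and at -3.78 and -3.93 on the prednisolone arrays, so each array of slide 2 was above each array of slide 1. The calprotectin genes S100a8 and S100a9 differed by 1.69 ± 1.31 and 1.40 ± 1.07, and both spread by more than 3 log2 units between the prednisolone arrays.

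Arg1, the arginine-hydrolysing enzyme of some macrophages, lay at -0.05 and 0.01 against -1.92 and -1.17, a difference of 1.52 ± 0.40 (unadjusted p = 0.00813). On the high arrays it lay at -0.16 and -1.10 and on the prednisolone arrays at -0.20 and -0.74, so the low arrays were the lowest of the 8. Itgam, an integrin subunit of myeloid cells, lay at -2.37 and -3.28 against -4.67 and -3.92.

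The cytotoxic granzymes Gzmb and Gzma differed by 1.05 ± 0.60 and 1.1 ± 0.73. Gzmb lay at -2.91 and -3.43 against -4.35 and -4.11, with -6.07 and -7.59 on the high arrays and -3.63 and -4.89 with prednisolone. Cd2, an adhesion receptor of T and NK cells, lay at -4.92 and -4.22 against -5.42 and -5.33. Cd3e, a chain of the T cell receptor complex, lay at -5.20 and -5.71 against -6.15 and -6.16, and neither low array was above background for it. With normexp the difference for Cd3e was -0.10. Relative to the 8-array mean of each gene, the median of the T and NK list was 1.08 and 0.62 on the anti-IL6R arrays, 0.36 and 0.44 on the low arrays, -1.19 and -1.14 on the high arrays, and 0.81 and -0.71 on the prednisolone arrays. Both low arrays lay just below both anti-IL6R arrays here. The median difference of the T and NK list was 0.36 without low array 1, 0.22 without anti-IL6R array 1, 0.12 with normexp and 0.24 with a filter on all 8 arrays. For the monocyte and neutrophil lists it was 0.07 and 0.29 without low array 1, and 0.77 and 0.98 without low array 2. The monocyte median ranged from 0.20 to 0.56 on leaving out an anti-IL6R array, and the neutrophil median was 0.31 with normexp and 0.49 with the filter on all 8 arrays.

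Among 32 chemokines and their receptors 25 lay higher (median 0.47), and 0 had an unadjusted p under 0.05. Ccl12, a ligand that draws monocytes, lay at -1.33 and -2.44 against -5.13 and -3.49, yet its spread between the prednisolone arrays (-1.29 and -5.27) gave a difference of 2.42 ± 1.43. Ccr1, a receptor of inflammatory chemokines, lay at -2.49 and -3.17 against -4.11 and -3.99. Ccl2, the main monocyte chemoattractant, lay at 2.81 and 3.08 against 1.75 and 2.86. Without anti-IL6R array 1 the list's median was 0.08, and with normexp it was 0.23.

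Of 26 genes of MHC and antigen presentation 24 lay higher (median 0.30), 14 of them without overlap, beside 15.2% of all genes. Psmb8, an immunoproteasome subunit, lay at 2.49 and 2.94 against 1.52 and 2.25, and the class II gene RT1-Ba at -1.88 and -2.66 against -3.10 and -3.26. Among 36 interferon-induced genes 24 lay higher (median 0.19), but the median was 0.01 without anti-IL6R array 2, 0.31 without anti-IL6R array 1, 0.11 without low array 1, 0.05 with normexp and 0.10 with the filter on all 8 arrays. Cxcl9, a T cell-attracting chemokine induced by interferon gamma, lay at -1.33 and -1.46 against -1.45 and -2.39, while Oas1a and Zbp1, sensors of viral nucleic acid, had differences of -0.46 ± 0.37 and -0.34 ± 0.33. Cxcl9 lay at -5.03 and -4.59 on the high arrays, below all 4 arrays compared here.

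Endothelial genes lay higher for 24 of 28 tested (median 0.33), 15 of them without overlap, beside 15.2% of all genes. Aplnr, the apelin receptor of vessels, lay at -3.07 and -3.37 against -3.94 and -4.00, a difference of 0.75 ± 0.19 (unadjusted p = 0.00716), with -4.14 and -4.39 on the high arrays and -3.38 and -3.35 with prednisolone, the same order by slide. Vwf, which encodes von Willebrand factor, had a difference of -1.02 ± 0.50, at 0.02 and 0.70 against 1.49 and 1.28. The list's median was 0.17 without low array 1, 0.21 without anti-IL6R array 1 and 0.16 with normexp. Of 9 red blood cell and platelet genes 8 lay lower (median -0.69, or -0.45 without low array 1, -0.46 without anti-IL6R array 2 and -0.44 with normexp). Alas2, the heme synthesis enzyme of red cell precursors, lay at -0.98 and -1.44 against 0.31 and -0.20, and Hbb, the beta globin chain, at -0.83 and -1.05 against 0.51 and -0.20. Both were higher on low array 1 and spread further between the prednisolone arrays, where Hbb lay at 1.01 and -1.37. The part of blood content in other values was not tested.

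Tubular segments downstream of the proximal tubule lay lower. Of 47 genes of the segments from Henle's loop to the collecting duct 42 lay lower (median -0.38), and of 21 intercalated cell genes 20 (median -0.45), with 0 called in either list. With spike-in scaling 27 of 47 and 13 of 21 still lay lower, with medians of -0.05 and -0.12. Slc26a4, the chloride and bicarbonate exchanger pendrin, lay at 6.48 and 5.94 against 7.40 and 6.70, and Slc12a3, the thiazide-sensitive sodium chloride cotransporter, at 0.61 and -0.33 against 1.61 and 0.57. P2ry14, a receptor for UDP-glucose, lay at -1.61 and -1.82 against -1.09 and -1.30, a difference of -0.52 ± 0.20 (unadjusted p = 0.0358). It was the only 1 of the 21 intercalated cell genes with an unadjusted p under 0.05, beside 3.11% of all genes.

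Egf, made by the distal tubule, lay at 5.02 and 2.85 against 7.0 and 4.64, so each array 1 was more than 2 log2 units above array 2 of its group. It lay at 1.83 and 0.04 on the high arrays and at 1.18 and 5.84 on the prednisolone arrays. Without low array 1 the medians of the distal and intercalated lists were -0.15 and -0.14, and without low array 2 they were -0.64 and -0.77. Without anti-IL6R array 2 they were -0.22 and -0.15, and without anti-IL6R array 1 the intercalated median was -0.75. Proximal tubule genes were divided, 22 higher and 30 lower of 52 (median -0.07, or 0.26 with spike-in scaling). Among the higher ones Slc5a12, a lactate cotransporter, lay at -1.28 and -0.75 against -3.22 and -2.24, and Cyp27b1, which makes active vitamin D, at -2.09 and -2.11 against -3.56 and -3.10. Among the lower ones Cubn lay at 4.50 and 4.92 against 5.40 and 5.04, and Kap at 3.01 and 3.24 against 4.78 and 3.51. Podocyte genes were divided, 10 higher and 11 lower (median -0.01, or 0.32 with spike-in scaling).

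**Figure D4:**
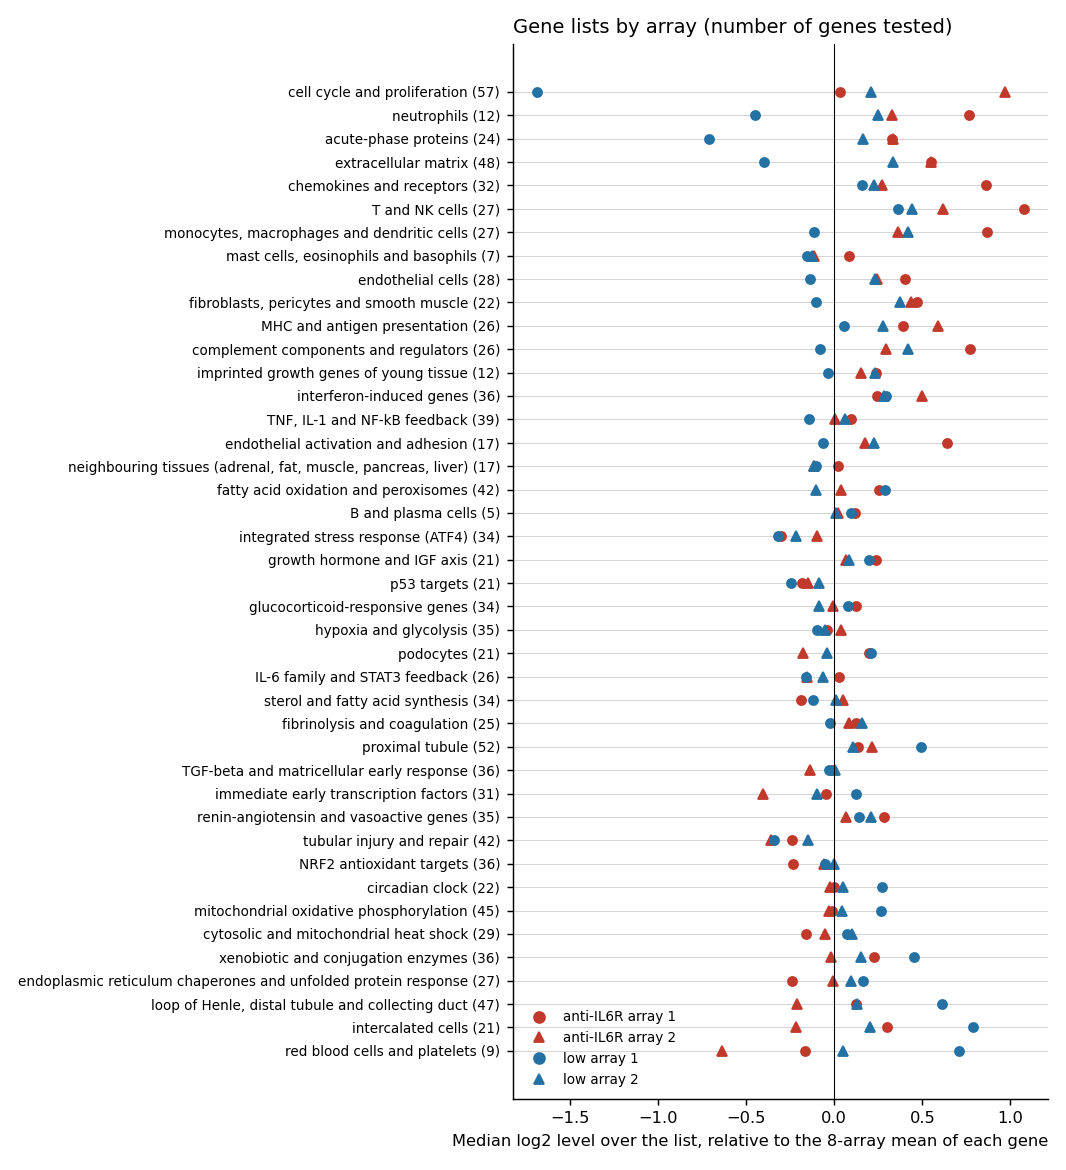
For each of 42 gene lists (number of genes tested in brackets), the median over its genes of the log2 level relative to the mean of each gene over the 8 arrays, for the 4 arrays compared; red is anti-IL6R, blue is low, circles are array 1 and triangles array 2. Lists are ordered by the median difference, from 1.21 for the cell cycle to -0.69 for red blood cells and platelets, and low array 1 is the lowest of the 4 arrays in the first list and the highest in the last.

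Markers of tubular injury lay on both sides, 16 higher and 26 lower of 42 tested (median -0.12, or 0.20 with spike-in scaling, 0.02 without low array 2, -0.02 without anti-IL6R array 2 and -0.05 with quantile normalization). Havcr1, the injury marker KIM-1, lay at 3.42 and 5.39 against 3.67 and 5.11, so the groups overlapped. It was left out of the test, because its spot on high array 2 was an outlier. The probe of Spp1, which encodes osteopontin, was saturated on 3 of the 4 arrays, so no difference is given. Timp1, a metalloproteinase inhibitor, lay at 4.11 and 4.89 against 3.26 and 4.56. Krt5, a basal cell keratin, was at least 1.64-fold higher (unadjusted p = 0.00632), and Prom1, a marker of scattered tubular and progenitor cells, lay at 3.93 and 3.76 against 5.09 and 4.63, a difference of -1.01 ± 0.42.

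The integrated stress response list was divided, with 21 higher and 13 lower of 34 (median 0.05, or -0.02 without low array 1). Its target Chac1, a glutathione-degrading enzyme, lay at -2.83 and -2.89 against -3.36 and -3.06, below its levels of -0.14 and 0.53 on the high arrays. NRF2 antioxidant targets were 15 higher and 21 lower of 36 (median -0.13, or 0.20 with spike-in scaling, 0.03 with quantile normalization and 0.00 without anti-IL6R array 1), glucocorticoid-responsive genes 17 and 17 of 34 (median 0.03), and hypoxia and glycolysis genes 18 and 17 of 35 (median 0.02). The last 2 medians were -0.01 and -0.02 when arrays were scaled on their medians. Without low array 2 the glucocorticoid median was -0.12, and without anti-IL6R array 2 the hypoxia median was -0.02. Chaperones of the endoplasmic reticulum lay lower for 26 of 27 (median -0.29), but 17 of 27 lay higher with spike-in scaling (median 0.04). Likewise 26 of 29 heat shock genes and 40 of 45 genes of oxidative phosphorylation lay lower (medians -0.20 and -0.18), and their medians turned to 0.13 and 0.15 with spike-in scaling. The direction of these 3 lists therefore depends on the scaling. Without anti-IL6R array 1 the chaperone and heat shock medians were -0.12 and -0.12, and the oxidative phosphorylation median was -0.08 without low array 1 and -0.31 without low array 2.

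Circadian clock genes gave a median of -0.14 over 22 tested (0.19 with spike-in scaling), with 6 higher and 16 lower. Without low array 1 the median was -0.02, with 10 higher and 12 lower, and without low array 2 it was -0.37. Of the 22 genes, 4 had an unadjusted p under 0.05, against 3.11% of all genes. Bmal1, the activator of the core loop, lay at -1.43 and -1.05 against -2.71 and -2.29, a difference of 1.26 ± 0.49 (unadjusted p = 0.0395). Npas2, a partner of Bmal1, lay at -5.66 and -5.97 against -6.20 and -6.44, with neither low array above background, and normexp gave a difference of -0.03. The repressors Nr1d2 (REV-ERB beta) and Bhlhe41 (DEC2) lay lower. Nr1d2 lay at -3.60 and -3.91 against -3.10 and -3.32, a difference of -0.55 ± 0.21 (unadjusted p = 0.0378), and Bhlhe41 at 1.1 and 0.87 against 1.78 and 1.75, a difference of -0.78 ± 0.26 (unadjusted p = 0.0224). On the high arrays Bmal1 lay at -0.50 and -1.91 and Bhlhe41 at 0.48 and 1.13, and on the prednisolone arrays at -0.84 and -1.46 and at 1.23 and 0.97. The low arrays were thus the lowest of the 8 for Bmal1 and the highest for Bhlhe41.

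**Figure D5:**
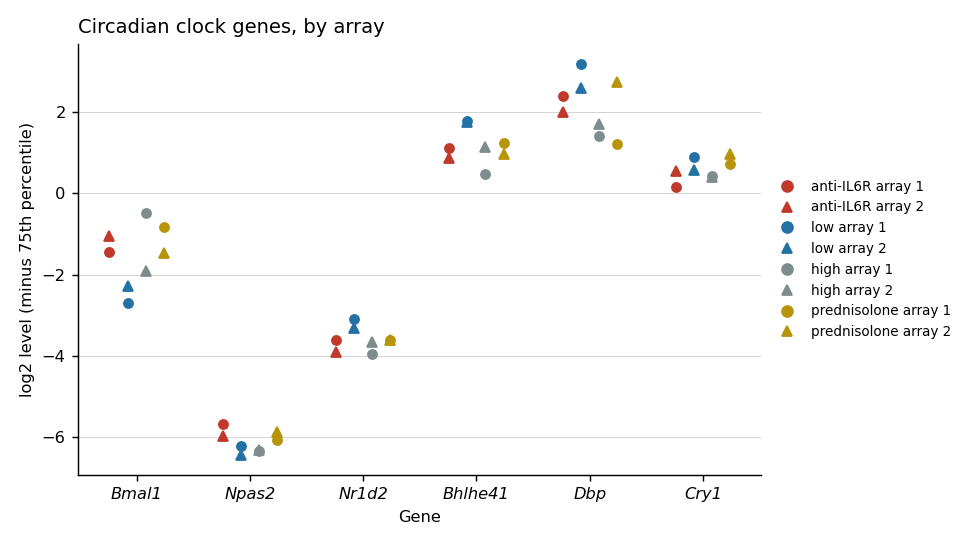
Log2 levels (minus the 75th percentile of the array) of 6 circadian clock genes on each of the 8 arrays, coloured by group, with circles for array 1 and triangles for array 2. The low arrays (blue) are the lowest of the 8 for Bmal1 and the highest for Bhlhe41, while the other 3 groups overlap for both genes.

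The promoters of Bmal1 and Bhlhe41 are shown because the clock acts on its own genes through known motifs, the ROR element bound by ROR activators and REV-ERB repressors and the E-box bound by Bmal1. Both are RefSeq's (GRCr8), the 250 bases before the start on the gene's strand, at chr1:176766078-176766327 (plus strand) for Bmal1 and chr4:180569356-180569605 (minus strand) for Bhlhe41. Capitals mark TAGGTCA in Bmal1 and CACGTG in Bhlhe41.
Bmal1: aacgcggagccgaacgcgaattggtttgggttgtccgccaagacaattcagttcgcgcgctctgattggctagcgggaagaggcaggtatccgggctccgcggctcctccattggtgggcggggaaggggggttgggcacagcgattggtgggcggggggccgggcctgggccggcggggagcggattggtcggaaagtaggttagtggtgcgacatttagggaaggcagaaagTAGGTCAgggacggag
Bhlhe41: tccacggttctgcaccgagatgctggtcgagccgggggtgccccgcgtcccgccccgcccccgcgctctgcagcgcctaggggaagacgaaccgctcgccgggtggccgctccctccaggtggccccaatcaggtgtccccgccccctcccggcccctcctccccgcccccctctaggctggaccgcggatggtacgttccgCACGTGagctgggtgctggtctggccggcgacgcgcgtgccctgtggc
The ROR element of Bmal1 began 16 bases before the start, and the E-box of Bhlhe41 began 48 bases before it. Nr1d2 and Npas2 held neither motif in the same window. Both strands were searched. The E-box is the same on either strand, the ROR element reads TGACCTA on the other, and these matches did not overlap. Of the 15 clock genes with a promoter in the table, 3 held the E-box and 1 the ROR element, beside 5.59% and 2.26% of all promoters of this length.

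Metabolic genes held some of the greatest single differences. Fabp4, a fatty acid-binding protein of adipocytes, capillary endothelium and macrophages, lay at -0.27 and -0.38 against -3.33 and -2.20, a difference of 2.44 ± 0.73 (unadjusted p = 0.014). It lay at -2.19 and -4.38 on the high arrays and at -1.01 and -1.59 with prednisolone, so the anti-IL6R arrays were the highest of the 8. Adipoq, an adipocyte hormone, had a difference of -0.53 ± 0.25, in the opposite direction. Cyp2c11, the male-specific cytochrome P450 of rat liver, lay at -1.99 and -1.62 against 2.65 and 0.58, a difference of -3.42 ± 1.60. Its levels on the prednisolone arrays were -5.04 and 0.16 and on the high arrays -2.40 and -3.37, a spread within groups that left its unadjusted p at 0.074.

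Of 42 genes of fatty acid oxidation 25 lay higher (median 0.11). This direction turned without low array 2, with 19 higher and 23 lower (median -0.12). The median was 0.03 without anti-IL6R array 1, 0.17 without anti-IL6R array 2 and 0.25 without low array 1. Cyp4a1, a fatty acid hydroxylase, lay at 2.68 and 2.54 against 1.47 and 1.51, a difference of 1.12 ± 0.43 (unadjusted p = 0.0371). Angptl4, an inhibitor of lipoprotein lipase, lay at 2.15 and 1.72 against 0.37 and 0.55, with 2.50 and 3.02 on the high arrays and 2.97 and 0.38 with prednisolone. Gstm1, a glutathione transferase, lay at 2.78 and 2.69 against 1.82 and 2.27, a difference of 0.69 ± 0.22 (unadjusted p = 0.018). Each of these genes separated the groups without overlap, as 39.2% of all genes did.

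Early transcription factors lay lower for 22 of 31 (median -0.11, or 0.22 with spike-in scaling, 0.05 without anti-IL6R array 2 and -0.27 without anti-IL6R array 1). The median was -0.06 without low array 1 and -0.20 without low array 2. Maff, a small MAF protein, lay at -4.75 and -4.85 against -4.19 and -3.74, a difference of -0.84 ± 0.26 (unadjusted p = 0.0174), and Fos at -0.10 and -0.70 against 1.09 and 0.52. On the high arrays Maff lay at -3.39 and -2.86, above the low arrays, and on the prednisolone arrays at -4.77 and -5.04. Tnnt3, a fast skeletal muscle troponin, had a difference of -0.80 ± 0.25 (unadjusted p = 0.0156), opposite in sign to the muscle sodium channel gene Scn4a. Igf2, the fetal growth factor, lay at 0.19 and -0.06 against -0.22 and -0.40, a difference of 0.37 ± 0.30.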

How the data were processed

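Agilent 1-colour (Cy3) arrays were hybridised with labelled RNA, 1 µg per sample. The deposited scanner files hold the processed signal intensity of every spot, background-subtracted but not normalized between arrays. The software was, per the file headers, Feature Extraction (Agilent), version 9.5.1.1. The authors' deposited value table holds the same intensity multiplied by 1 factor per array (largest deviation 3.05e-05 in log2). The number of arrays limits the precision.

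Control spots and outlier spots were left out, and log2 intensity was taken minus the 75th percentile of each array. Of 41012 probes, 765 lacked an unflagged spot on some array and 11562 were not well above background on both arrays of any group, which left 28685 probes. For each of 24447 genes (12463 with a symbol) the probe with the highest mean over 8 arrays was used. Names came from the files for 19760 probes and otherwise from RefSeq accessions (10735), symbols (5571), synonyms (3729) or gene IDs (1217), and older array designs can misname a probe. A linear model with moderated spread (limma 3.58.1, R 4.3.3) was fitted to all 8 arrays (4 residual and 2.374 prior degrees of freedom), with Benjamini-Hochberg adjustment over all genes, and was tested on simulated data. SE is that of the fit, and lists are described by counts and medians with no set test.

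Where neither array of a group measured a probe well above background, that group gives only a bound. The fold is then given as "at least", the brighter group's mean against, per array, the lowest signal well above background or the probe's own if higher. Such a bound holds only for the background correction used here. The differences of Cd3e (-0.10) and Npas2 (-0.03) turned with normexp, so no bound is given for them. Named genes were, per direction, the 12 genes with a symbol and no overlap between groups that had the smallest p, since fewer passed, the 4 members of each list with the smallest p, and 16 followed genes such as Il6r and Havcr1. Some genes that this rule takes are not reported here. The members and the gene lists were chosen with earlier results of these data known. Alternatives to background correction, scaling, filter, probe choice, samples in the fit and moderation were run.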

Additional observations from a re-analysis of the deposited data

How the results depend on the processing

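The count of genes called higher, 1 in the values reported, was 0 with normexp background correction, median scaling, the authors' deposited value table, no filter on dim probes, a filter on all 8 arrays, outlier spots kept, the 4 arrays alone and an intensity trend in eBayes. It was 3 with quantile normalization and 7 without the prednisolone group, each with 1 gene called lower, and 1 with a filter on the anti-IL6R and low groups alone, with the mean of all probes and with spike-in scaling, where that gene was not Scn4a. Leaving out each array in turn gave 0 to 7 genes higher and 0 to 1 lower, with 7 and 1 on leaving out prednisolone array 1 or prednisolone array 2. At an unadjusted p under 0.05 the count of genes was 760, and ranged from 281 with normexp to 1730 in the fit of the 4 arrays alone. The replicate block left 0 genes called higher and 0 lower. Same-numbered deviations correlated at 0.37 between the anti-IL6R and low groups but at -0.16 and -0.35 between these groups and prednisolone. With 2 arrays per group this cannot show whether same-numbered samples were paired.

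Of 100 genes followed through the alternatives, 9 changed direction under at least 1 alternative that tested them, and the others under none. With normexp the differences of Cd3e, Gbp5 and Npas2 were -0.10, -0.0905 and -0.0349. With spike-in scaling those of Lifr and Il6st were 0.0033 and 0.28. Il6r was -0.0040 with quantile normalization, -0.0316 with median scaling and -0.0318 with the authors' deposited value table, and Chac1 was -0.19 with the mean of all probes. Leaving out arrays gave Il6r a range of -0.35 to 0.36, Il6st of -0.22 to 0.13, Stat3 of -0.0596 to 0.31 and Timp1 of -0.0551 to 1.24. The cause of these changes was not tested. Probes near background, where most of the smallest p-values lay, limit what these arrays can resolve.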

Other observations

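The gene lists not described above gave these values, with 0 genes called in any of them by limma. At an unadjusted limma p under 0.05 were 3 of their genes (Fabp4 and Gstm1 higher, Tnnt3 lower), a share below the 3.11% of all genes. Complement components and regulators lay higher in the anti-IL6R grafts for 19 of 26 tested (median 0.29, or 0.06 without low array 1, 0.07 without anti-IL6R array 1, 0.44 without anti-IL6R array 2 and 0.60 without low array 2). Genes of TNF, IL-1 and NF-kB feedback lay higher for 28 of 39 (median 0.15, or 0.03 without low array 1, 0.23 without low array 2, 0.10 without anti-IL6R array 1, 0.03 with normexp and 0.06 with a filter on all 8 arrays), and endothelial activation and adhesion genes for 10 of 17 (median 0.12, or -0.04 without low array 1, 0.48 without low array 2, 0.28 without anti-IL6R array 2 and 0.08 with normexp). Sele, an adhesion receptor for leukocytes, lay at -1.75 and -3.03 against -4.44 and -2.74, so the groups overlapped. Imprinted growth genes of young tissue lay higher for 8 of 12 (median 0.24), but the median was 0.12 with the dim member at its bound or with a filter on all 8 arrays, 0.13 with normexp, and 0.13 without low array 1, with 6 higher and 6 lower. Genes of the growth hormone and IGF axis lay higher for 12 of 21 (median 0.05, or -0.01 with normexp). Their median was -0.02 without low array 2, -0.05 without anti-IL6R array 1 and -0.03 without anti-IL6R array 2. Mast cell, eosinophil and basophil genes lay higher for 5 of 7 (median 0.36, or -0.06 with normexp, -0.04 without anti-IL6R array 1 and 0.56 without anti-IL6R array 2), and B and plasma cell genes for 3 of 5 (median 0.08, or -0.19 with normexp). Genes of neighbouring tissues lay higher for 9 of 17 (median 0.11, or -0.13 with normexp). Their median was 0.07 without low array 2 and 0.05 with a filter on all 8 arrays. For p53 targets 12 of 21 lay higher (median 0.04, or -0.03 without low array 1).

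Xenobiotic and conjugation enzymes lay lower for 22 of 36 (median -0.20, or 0.12 with spike-in scaling, -0.10 without low array 1 and -0.38 without low array 2), and renin-angiotensin and vasoactive genes for 20 of 35 (median -0.12, or 0.21 with spike-in scaling, 0.00 without low array 2 and 0.01 without anti-IL6R array 2). Early TGF-beta and matricellular genes lay lower for 21 of 36 (median -0.07, or 0.26 with spike-in scaling). Fibrinolysis and coagulation genes were divided, 12 higher and 13 lower (median -0.06, or 0.26 with spike-in scaling), as were genes of sterol and fatty acid synthesis, 16 higher and 18 lower (median -0.02, or 0.31 with spike-in scaling).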
